A study of Mus musculus with 24 samples.

Results

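The 10 genes followed here belong to the neuronal microtubule cytoskeleton and growth cone: *Dcx*, *Dclk1*, *Map1b*, *Map2*, *Mapt*, *Stmn1*, *Stmn2*, *Stmn3*, *Stmn4* and *Gap43*. They were taken by symbol from a table of 3′ RNA-seq values in which 54658 genes are listed, and 10 of 10 were present and above the expression minimum in every comparison. RNA came from the cortex of E11.5 and E14.5 mouse embryos and from neurosphere cultures, which are cells freed from E14.5 cortex and grown in suspension with EGF and FGF2, collected after 12 or 24 hours. At each of these 4 conditions there were 3 libraries labelled *Cep135* (-/-) and 3 labelled *Cep135* (+/+), 24 in all, here called mutants and controls. *Cep135* encodes a centriole scaffold protein, its mutant allele is a small CRISPR deletion in exon 2 kept on a C57BL/6J background, and no conditional driver was used. The cortices and both cultures of E14.5 came from the same 6 embryos (mutants 1, 2 and 6, controls 3, 4 and 5), so their results are not independent, whereas the E11.5 mutants A, B and C and controls D, E and F were other embryos.

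These proteins build and remodel the microtubules of young neurons. Doublecortin (*Dcx*) and its relative *Dclk1* bind between protofilaments and are needed for neuronal migration, *Dcx* being the X-linked lissencephaly gene. *Map1b*, *Map2* and tau (*Mapt*) bind along the lattice, with *Map2* typical of dendrites and tau of axons. Stathmins do the opposite: *Stmn1*, found in dividing cells and neurons, and the neuronal, membrane-anchored *Stmn2*, *Stmn3* and *Stmn4* bind free tubulin dimers and favour microtubule shrinkage until kinases phosphorylate them. *Gap43* is no microtubule protein but a membrane protein of the growth cone, the moving tip of the axon, and appears in the same newborn neurons. In a developing cortex, progenitors next to the ventricle carry little of most of these transcripts, and the neurons that leave them carry much.

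Values are normalized read counts, that is, reads at a gene's 3′ end divided by a size factor of the library, so they compare libraries but not one gene with another. Depth was 4732781 to 11645213 reads on genes per library. Reads at the 3′ end of *Cep135* do not cover the deletion, which lies at the other end of the gene. The *Cep135* value did not separate the genotypes either, at 171–375 in the 12 control libraries and 173–336 in the 12 mutant libraries. Libraries A and D carry a title prefix (TBI189) that differs from that of the other E11.5 libraries (TC48, written TL48 for B and C in another label), and 1 mutant cortex (number 6) is called E11.5 in its description but E14.5 in its title and source name, by which it was grouped. Expression of X- and Y-linked transcripts put A, C, E, 1 and 2 as females, so that all 3 E14.5 controls were males. Among the E14.5 cortices, control 5 and mutant 6 stood apart, with summed choroid plexus markers of 3274 and 895 against 5223–7877 in the others. As a check of tissue, 12 of 12 postmitotic neuron markers were detected in each of the 8 groups.

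The clearest pattern in these genes was with age. Between E11.5 and E14.5, 9 of 10 rose in control cortex and 10 of 10 rose in mutant cortex, with medians of 1.47 and 1.77 on the log2 scale against medians over all genes of -0.08 and -0.07. Over all genes tested, 18.3% rose in controls (2492 of 13605) and 18.4% in mutants (2513 of 13647) by the same rule, an adjusted p under 0.05 from limma. Tau changed most, 10.1-fold in controls. The E11.5 and E14.5 embryos came from different litters and labels, so age and litter cannot be told apart. In bulk tissue, more neurons and more RNA per neuron cannot be told apart either.

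Of the doublecortin family, *Dcx* (ENSMUSG00000031285, GRCm38 chromosome X, 143855842–143933311, minus strand) read 1197, 1072 and 1304 in the E11.5 controls D, E and F and 4742, 4901 and 3860 in the E14.5 controls 3, 4 and 5. The ages did not overlap, and *Dcx* rose by 1.91 ± 0.13 (log2 difference ± SE, n = 3 and 3; limma adjusted p = 7.03e-06). Mutants read 943, 983 and 966 at E11.5 and 3275, 3589 and 3702 at E14.5, a rise of 1.87 ± 0.11 (limma adjusted p = 3.35e-07). *Dclk1* (chromosome 3, 55242364–55539068, plus strand), whose transcripts encode a microtubule-binding kinase, had a smaller range. It rose from 964–1087 to 1908–2157 in controls, by 0.97 ± 0.11, and from 898–1014 to 1749–1941 in mutants, by 0.94 ± 0.11 (limma adjusted p = 0.000118 and 5.5e-05).

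Among the lattice-binding proteins, *Mapt* (chromosome 11, 104231390–104332090, plus strand) read 618, 574 and 904 in the E11.5 controls and 7200, 7055 and 6462 in the E14.5 controls. No library of one age came near the other, and the log2 difference was 3.33 ± 0.17 (limma adjusted p = 1.26e-06), number 130 from the top of 13605 genes. In mutants *Mapt* went from 408, 618 and 499 to 7268, 6490 and 5516, by 3.67 ± 0.16 (limma adjusted p = 3.87e-08), number 68 of 13647. *Map2* (chromosome 1, 66175273–66442583, plus strand), the dendritic protein, rose from 2158–3557 to 7028–8316 in controls, by 1.35 ± 0.19, and from 2471–2995 to 5528–6780 in mutants, by 1.22 ± 0.13 (limma adjusted p = 0.000425 and 2.1e-05).

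*Map1b* (chromosome 13, 99421446–99516540, minus strand), an early axonal protein, was the exception. Controls read 8640, 16267 and 11353 at E11.5 and 14439, 14264 and 26072 at E14.5. These ranges overlapped at E11.5 control E, and the log2 difference of 0.58 ± 0.28 missed the threshold (limma adjusted p = 0.126). Without control E it was 0.82 and passed (limma adjusted p = 0.0419), and without control 5 it was 0.30 and did not. With all 6 libraries it passed with quantile normalization (0.63, limma adjusted p = 0.0254) and with DESeq2 (0.64, DESeq2 adjusted p = 0.0362), so the call depended on both library and method. In mutants *Map1b* rose from 7952, 9324 and 7618 to 16815, 13719 and 22683, by 1.07 ± 0.17 (limma adjusted p = 0.000516). The highest E14.5 value of each genotype was that of control 5 and mutant 6, the cortices that stood apart in their choroid plexus markers. Without mutant 6 the rise in mutants was 0.88 and still passed.

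The stathmins rose together. *Stmn2* (chromosome 3, 8509360–8561606, plus strand), the growth cone stathmin also called SCG10, read 1284, 1309 and 1650 in E11.5 controls and 4394, 4302 and 4048 in E14.5 controls. That is a rise of 1.59 ± 0.13 with no overlap, and mutants went from 877, 1138 and 949 to 3387, 3347 and 3512, by 1.80 ± 0.12 (limma adjusted p = 1.47e-05 and 9.55e-07). *Stmn3* (chromosome 2, 181306459–181314500, minus strand) rose by 1.64 ± 0.15 in controls, from 554–785 to 2036–2301, and by 1.89 ± 0.19 in mutants, from 488–738 to 1589–2612. *Stmn4* (chromosome 14, 66344296–66361680, plus strand) rose by 1.27 ± 0.13 in controls, from 438–573 to 1153–1235, and by 1.75 ± 0.19 in mutants, from 315–505 to 1037–1528. All of these 4 rises had a limma adjusted p of 5.61e-05 or less.

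*Stmn1* (chromosome 4, 134468320–134473843, plus strand), which is also read in progenitors, was the least even. It read 3722, 8049 and 8544 in E11.5 controls and 3441, 11247 and 6732 in E11.5 mutants, and the 2 lowest were the libraries D and A with the differing title prefix. At E14.5 it read 13028, 13737 and 17590 in controls and 16243, 14265 and 14656 in mutants. The rises of 1.21 ± 0.28 and 1.23 ± 0.31 passed the test (limma adjusted p = 0.0083 and 0.00757). With control D left out the rise in controls was 0.82, and with mutant A left out that in mutants was 0.79, and both still passed (limma adjusted p = 0.00787 and 0.015).

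*Gap43* (chromosome 16, 42248442–42340651, minus strand) rose from 1378, 1224 and 1779 to 6901, 6224 and 4814 in controls, by 2.03 ± 0.17, next after *Mapt* in size. In mutants it rose from 1081, 1526 and 1213 to 7880, 7099 and 4195, by 2.29 ± 0.21 (limma adjusted p = 2.38e-05 in controls and 8.6e-06 in mutants). Its lowest E14.5 values were again those of control 5 and mutant 6.

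**Figure D1:**
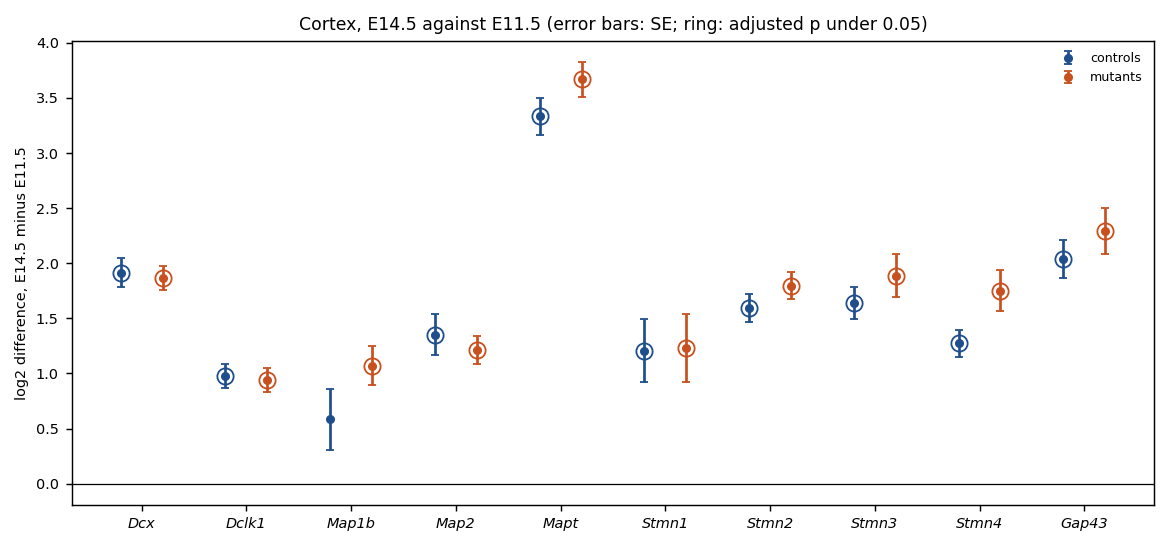
Log2 difference between E14.5 and E11.5 cortex (vertical axis, log2 of normalized read count + 1) for the 10 genes, with controls in blue and mutants in orange, 3 libraries per group and age, and bars for the SE. Every point lies above 0, *Mapt* highest at 3.33 and 3.67, and only *Map1b* in controls (0.58) lacks the ring that marks an adjusted p under 0.05.

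No gene of the set was shown to rise by a different amount in the mutants. The test of the difference between the genotypes' age changes called 0 of 10 members and 0 (0%) of 13650 genes with limma, of which 1070 had an unadjusted p under 0.05, and edgeR called 0 and DESeq2 17 of all genes, no member among them. The member nearest to the threshold was *Stmn4*, which changed by 0.48 ± 0.25 more in mutants (limma adjusted p = 0.631).

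Other genes of the same machinery, from lists drawn up for this purpose, moved less uniformly. Of 10 growth cone proteins and collapsin response mediator family members, 7 rose and 1 fell in each genotype, led by *Cttnbp2*, a cortactin-binding protein (727 ± 196 at E14.5 against 113 ± 12.8 at E11.5 in controls), and *Dpysl3* (8368 ± 334 against 2705 ± 470). *Dpysl4* of the same family fell, from 177 ± 18.9 to 66.2 ± 3.98. Of 14 kinases and activators that phosphorylate these proteins, 11 rose and 0 fell in controls and 9 rose and 0 fell in mutants, among them *Cdk5r1*, the neuronal activator of *Cdk5*, which rose from 1569 ± 306 to 6647 ± 522 in controls. By contrast, of 7 tested partners of doublecortin and Lis1, 2 rose and 2 fell in controls: the dynein intermediate chain *Dync1i1* rose from 14.4 ± 3.18 to 252 ± 31.6, whereas *Nde1*, a mitotic dynein regulator, fell from 633 ± 54.9 to 293 ± 16.2. Of 11 other structural microtubule-associated proteins 4 rose and 2 fell in controls, *Map9* most clearly (1436 ± 217 against 426 ± 55.6), and of 13 end-binding and severing proteins 7 rose and 2 fell in both genotypes, with *Clasp2* at 1052 ± 49.8 against 512 ± 51.5.

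Markers of postmitotic neurons moved with these genes. In controls 11 of 12 rose and in mutants 12 of 12 did, and their summed level went from 10465–14898 to 36263–37250 in controls and from 9908–11577 to 30132–30971 in mutants. *Neurod6*, a transcription factor of cortical projection neurons, rose by 5.79 ± 0.29 and 6.43 ± 0.39. Proliferation markers moved the other way, 8 of 8 lower in controls and 7 of 8 in mutants by the test, whereas apical progenitor markers were mixed: 7 of 10 fell and 3 rose in controls, and 5 fell and 3 rose in mutants. What part such a change in cell makeup had in the members' rise was not tested.

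**Figure D2:**
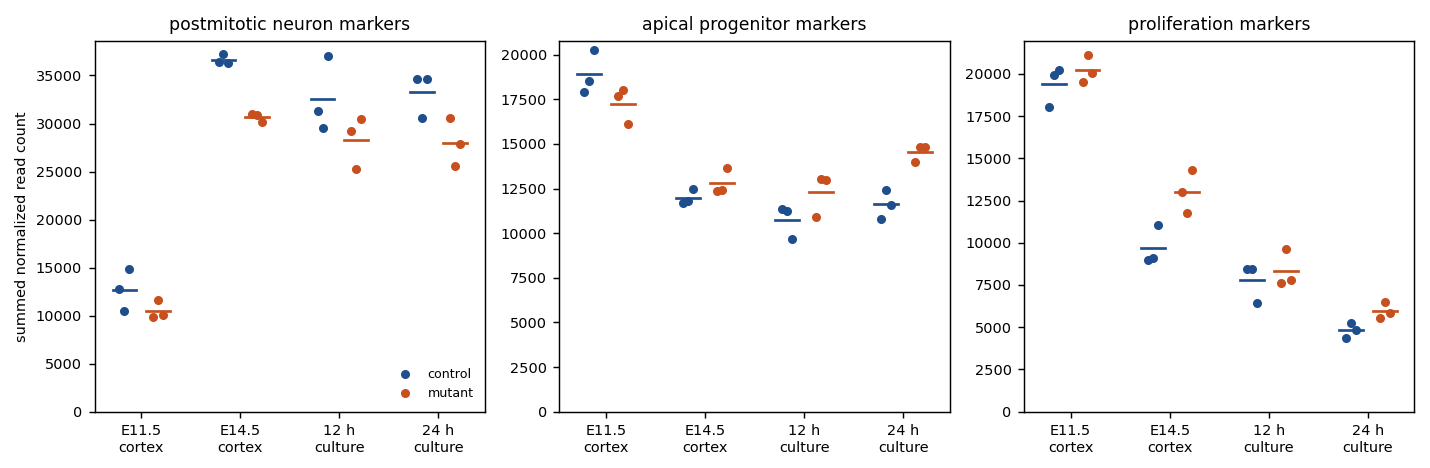
Summed normalized read count per library (points) and group mean (lines) of 12 postmitotic neuron, 10 apical progenitor and 8 proliferation markers, by condition and genotype (controls blue, mutants orange, 3 libraries each). The neuron sum at E14.5 lies at 36263–37250 in controls and 30132–30971 in mutants, and proliferation markers are highest at E11.5.

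The 5 other genes whose means over the 8 groups followed those of the set most closely were *Camk2b*, *Gnao1*, *Pde10a*, *Rtn1* and *Kif21b*, with Pearson r of 0.998 or more over 8 group means that share normalization and, for 6 of them, embryos. *Camk2b*, a subunit of a calcium-dependent kinase, averaged 13.7 in E11.5 and 362 in E14.5 controls, and 9.73 and 289 in the mutants. Within the set, r with the set's own mean ran from 0.916 (*Stmn1*) and 0.947 (*Map1b*) to 0.996 (*Dcx* and *Gap43*).

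Upstream DNA of genes that rose together can be set side by side. RefSeq start sites (GRCm38.p6) were at hand for 5 of the 10 genes, *Dcx*, *Dclk1*, *Map1b*, *Map2* and *Stmn3*, in 7 windows, and the 250 bases before the start are shown for the 3 genes whose window lies outside the annotated gene. Capitals mark E-boxes, CANNTG, the core read by basic helix-loop-helix factors such as the proneural proteins.
*Dclk1* (chr3:55242114-55242363, plus strand): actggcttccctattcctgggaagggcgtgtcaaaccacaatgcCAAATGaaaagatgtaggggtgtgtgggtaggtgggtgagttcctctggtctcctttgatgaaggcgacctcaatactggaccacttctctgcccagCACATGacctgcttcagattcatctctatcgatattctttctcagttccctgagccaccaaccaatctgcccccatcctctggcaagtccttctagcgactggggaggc
*Map1b* (chr13:99516603-99516852, minus strand): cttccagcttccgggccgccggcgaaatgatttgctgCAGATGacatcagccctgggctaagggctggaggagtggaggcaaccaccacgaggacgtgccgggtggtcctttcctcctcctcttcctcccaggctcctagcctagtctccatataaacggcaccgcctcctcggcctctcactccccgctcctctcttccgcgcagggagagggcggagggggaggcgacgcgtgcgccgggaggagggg
*Stmn3* (chr2:181314501-181314750, minus strand): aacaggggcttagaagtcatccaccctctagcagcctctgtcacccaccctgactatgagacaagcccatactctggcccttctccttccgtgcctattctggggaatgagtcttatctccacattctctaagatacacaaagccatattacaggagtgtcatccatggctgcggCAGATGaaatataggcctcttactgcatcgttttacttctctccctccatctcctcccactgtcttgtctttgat
CANNTG, which reads the same on both strands, was present in 4 of the 7 windows and in 66.2% of 32851 windows of the same length in the table. It was absent from the *Dcx* and *Map2* windows, which are not shown. The narrower CAGATG, searched on both strands and itself a case of CANNTG, was present in 2 of 7, *Map1b* at base -213 and *Stmn3* at base -75 from the start, against 14.4% of all windows, and CAGCTG in 0 of 7 against 13%. GGGCGG was present in 2 of 7 (32.7% of all) and TGACGTCA in 0 of 7 (1.55% of all). GC content was 52.4% in the *Dclk1* window shown, 66.4% for *Map1b* and 48.8% for *Stmn3*, against a median of 52.4%. The *Map1b* window also overlaps an exon of *Gm26559*, a noncoding gene on the other strand. A match describes the letters, not a bound site.

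The comparison the study was made for is mutant against control, and there most members had a lower mean in mutants but none passed the limma test. With limma, 0 of 10 genes were called at E11.5, at E14.5, in the 12-hour culture, in the 24-hour culture or over both cortex ages together. Of all genes tested, those comparisons called 2 of 13406 (0.0149%), 10 of 13583 (0.0736%), 0 of 13389 (0%), 36 of 13300 (0.271%) and 19 of 13650 (0.139%), so the test found few differences of any kind. At an unadjusted p under 0.05 there were 991, 1236, 650, 1414 and 1189 genes (7.39, 9.1, 4.85, 10.6 and 8.71%) and 4, 2, 2, 7 and 3 of the 10 members. In direction, 9 of 10 members were lower in mutants at E11.5, 7 of 10 at E14.5, 10 of 10 in each culture and 9 of 10 over both ages, with median log2 differences of -0.28, -0.07, -0.22, -0.28 and -0.18 against medians over all genes of 0.02, 0.01, -0.02, -0.01 and 0.01. Of all genes tested, 47.1, 48.3, 52.2, 51.7 and 47.5% were lower in these comparisons.

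**Figure D3:**
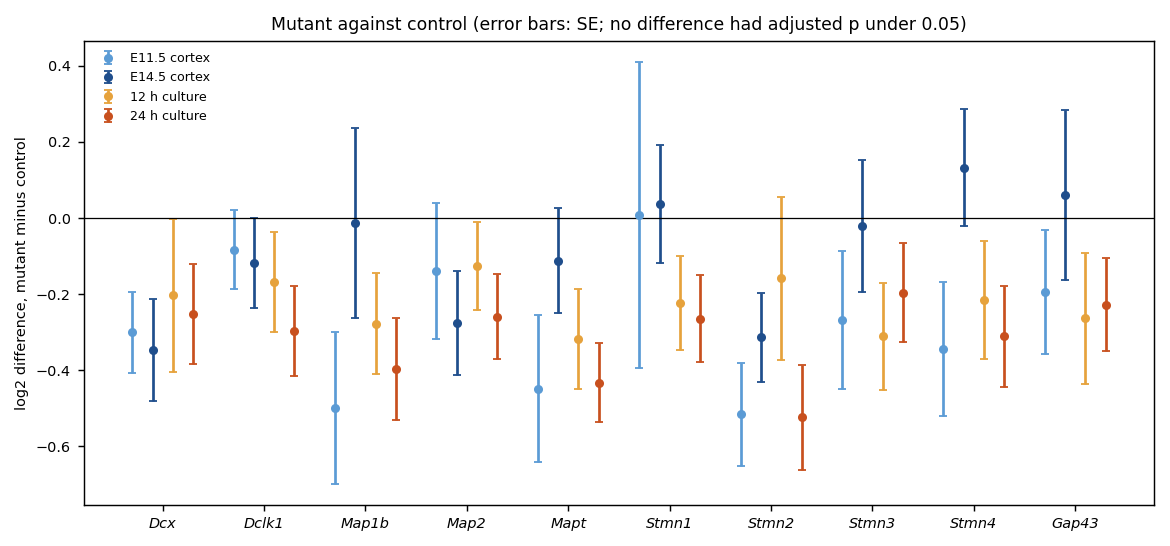
Log2 difference, mutant minus control (vertical axis, log2 of normalized read count + 1), for the 10 genes in the 4 conditions, 3 libraries per group, bars for the SE. Most points lie below 0, the lowest being *Stmn2* in the 24-hour culture (-0.52) and at E11.5 (-0.52), and the widest bar is that of *Stmn1* at E11.5 (SE 0.40).

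In the cortex, *Stmn2* had the smallest p of the set at both ages. At E11.5 the mutants read 877, 1138 and 949 and the controls 1284, 1309 and 1650, and at E14.5 the mutants read 3387, 3347 and 3512 and the controls 4394, 4302 and 4048. Every mutant was below every control of its age. The log2 differences were -0.52 ± 0.14 and -0.31 ± 0.12 (limma adjusted p = 0.546 and 0.507), and over both ages -0.41 ± 0.09, or 0.75 times the control level (limma adjusted p = 0.114). An exact permutation of the genotype within each age, two-sided over the 12 cortices, gave p = 0.005, the smallest it can give, before any correction for the genes tested. Any gene lower without overlap at both ages must give this value, so it only restates that separation.

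*Dcx* was the other gene without overlap at both ages. Its mutants read 943–983 against 1072–1304 at E11.5 and 3275–3702 against 3860–4901 at E14.5, for differences of -0.30 ± 0.11 and -0.35 ± 0.13 (limma adjusted p = 0.612 and 0.509). Over both ages it was -0.32 ± 0.08 (limma adjusted p = 0.196), with the same exact permutation p of 0.005, again fixed by the lack of overlap. At both ages, 2 of 10 members were thus lower without overlap, against 0.52% of all genes (71 of 13650). At single ages 2 of 10 members were lower without overlap at E11.5 (6.11% of all genes) and 3 of 10 at E14.5 (6.71%), the third being *Map2* at 5528–6780 against 7028–8316 (-0.28 ± 0.14, limma adjusted p = 0.569).

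DESeq2 on the whole reads called both *Dcx* and *Stmn2* over both ages (DESeq2 adjusted p = 0.0117 and 0.00212) and 94 genes in all, while edgeR called neither. *Dcx* lies on the X chromosome and all E14.5 controls were male, so sex and genotype were partly mixed at that age. With a term for embryo sex the difference over both ages was -0.26 for *Dcx* and -0.34 for *Stmn2* (limma adjusted p = 0.999 and 0.896). Leaving out the E14.5 cortices of control 5 and mutant 6, an alternative chosen after seeing the data, gave -0.49 for *Dcx* and -0.37 for *Stmn2* at E14.5, both then called (limma adjusted p = 0.00515 and 0.0205), but in that comparison of 2 male controls with 2 female mutants 1619 of 13504 genes were called. At E11.5, summed choroid plexus markers were 1115–1193 in mutants and 835–958 in controls. Summed interneuron and ventral telencephalon markers were 995–1247 and 1430–1708, and endothelial and pericyte markers 1237–1400 and 1054–1174. The part of such makeup in the E11.5 differences was not tested.

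The other cortex differences were between overlapping groups and did not pass the test. *Map1b* and *Mapt* at E11.5 had an unadjusted limma p under 0.05 (0.0302 and 0.0419). *Mapt* was -0.45 ± 0.19 at E11.5 (408–618 against 574–904) and -0.11 ± 0.14 at E14.5 (5516–7268 against 6462–7200), with limma adjusted p of 0.669 and 0.819. *Map1b* was -0.50 ± 0.20 at E11.5 and -0.01 ± 0.25 at E14.5, where its 2 highest values were again control 5 and mutant 6. *Dclk1* was -0.08 ± 0.10 and -0.12 ± 0.12. *Stmn1* was 0.01 ± 0.40 and 0.04 ± 0.15, *Stmn3* -0.27 ± 0.18 and -0.02 ± 0.17, *Stmn4* -0.34 ± 0.18 and 0.13 ± 0.15, and *Gap43* -0.19 ± 0.16 and 0.06 ± 0.22, signs that at E14.5 differ between these members and that turned for *Stmn1*, *Stmn4*, *Gap43* and *Map1b* under another scaling or with a term for sex.

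**Figure D4:**
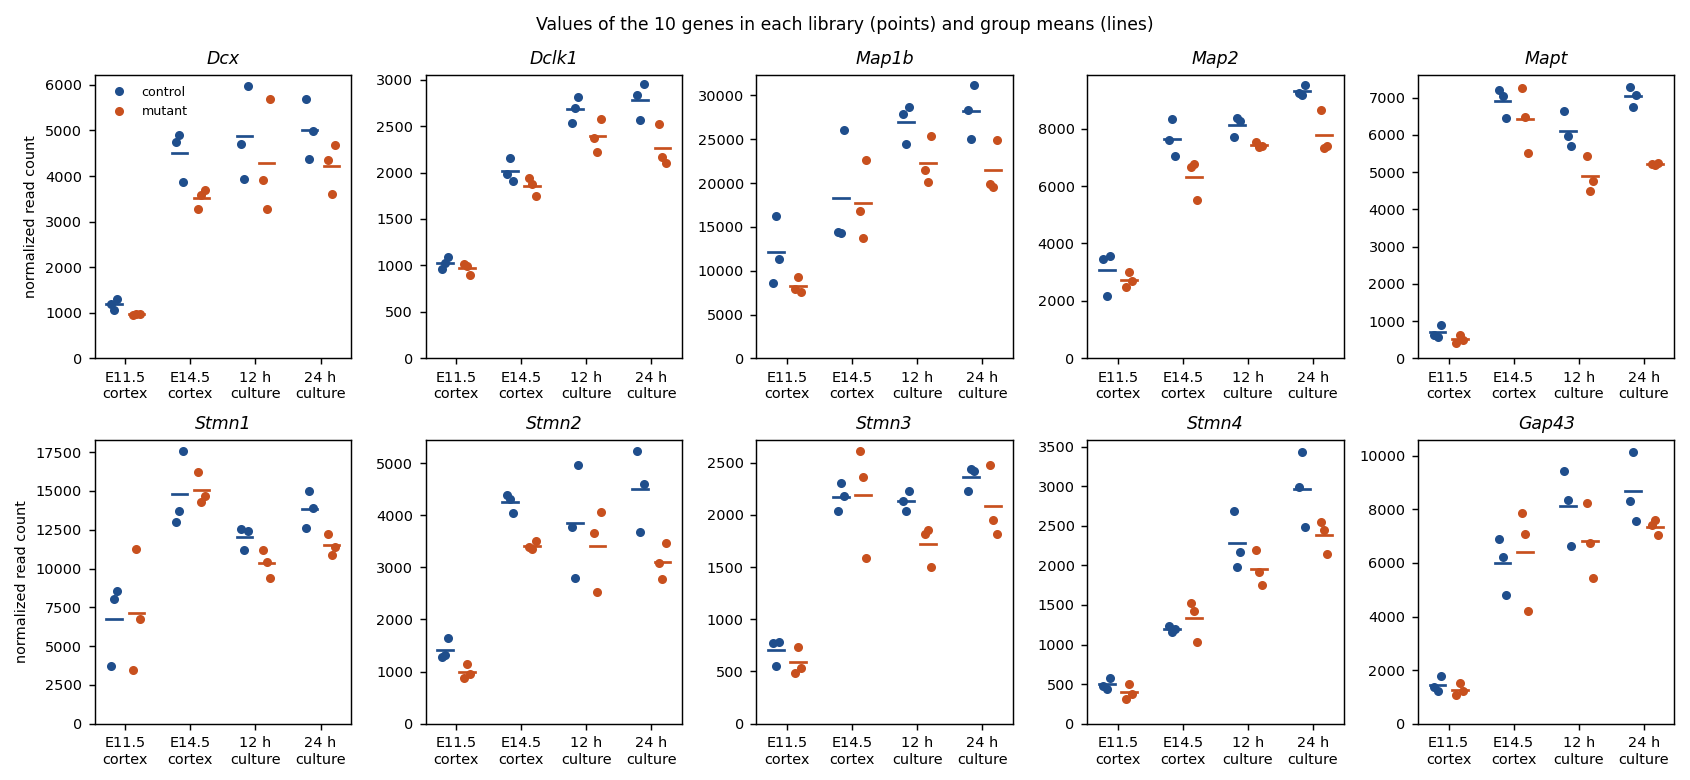
Normalized read count (vertical axes, each from 0) of the 10 genes in each of the 24 libraries (points) with group means (lines), controls in blue and mutants in orange. For every gene but *Map1b* and *Stmn1*, all E11.5 points lie below those of the other conditions. The mutant points of *Stmn2* and *Dcx* lie below the control points at both cortex ages.

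In the 12-hour culture the mutants were lower on average for each of the 10 genes, with log2 differences of -0.32 to -0.13 and limma adjusted p of 0.913 to 0.932. The signs of *Dcx* (0.24) and *Stmn2* (0.12) turned with a term for embryo sex, all controls of both cultures being male, and that of *Map1b* (0.072) with quantile normalization. Summed choroid plexus markers were 1111–3887 in controls and 4810–16314 in mutants, and their part in the result was not tested. *Stmn2* read 3655, 2527 and 4069 in mutants and 3772, 2793 and 4957 in controls, so the separation seen in the cortices of the same embryos was not there. Members lower without overlap were *Mapt* (4494–5437 against 5692–6654), *Map2* (7362–7524 against 7719–8364) and *Stmn3* (1503–1859 against 2037–2226), 3 of 10 against 5.94% of all genes. DESeq2 called 9 genes and edgeR 0 in this comparison, no member among them.

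At 24 hours all 10 means were again lower in mutants. *Stmn2* read 3079, 2784 and 3468 in mutants and 5227, 3679 and 4598 in controls, a difference of -0.52 ± 0.14 without overlap (limma adjusted p = 0.135). *Mapt* read 5206, 5184 and 5232 in mutants and 7276, 6742 and 7076 in controls, -0.43 ± 0.10 (limma adjusted p = 0.106), the smallest p of the set. DESeq2 called both (DESeq2 adjusted p = 0.0472 for *Stmn2* and 0.0172 for *Mapt*, with 182 genes called in all), edgeR neither, and without control 4 *Stmn2* was called at -0.66 (limma adjusted p = 0.0347).

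Of the others at 24 hours, *Map1b* was -0.40 ± 0.13 (19560–24879 against 25010–31203), *Dclk1* -0.30 ± 0.12 (2106–2524 against 2567–2952), *Stmn1* -0.27 ± 0.11 (10861–12211 against 12599–15001) and *Map2* -0.26 ± 0.11 (7341–8645 against 9152–9514), all 4 without overlap. That made 6 of 10 members lower without overlap against 9.06% of all genes. With quantile normalization the *Map1b* difference was gone (-2.9e-15). *Stmn4* (-0.31), *Dcx* (-0.25), *Gap43* (-0.23) and *Stmn3* (-0.20) overlapped.

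Several other values followed genotype at 24 hours. Controls had 4732781–5709443 reads per library and mutants 7903426–11645213, and the share of reads on *Gm42418*, a gene that collects ribosomal RNA reads, was 6.26–13.9% in controls and 20.5–23.1% in mutants. With that share as a term, added after seeing the data, the *Stmn2* and *Mapt* differences were -0.21 and -0.36 and 0 members were called, with the share and the genotype almost inseparable. Sex was partly mixed with genotype too, all 3 controls being male and 2 of 3 mutants female. With a term for embryo sex the *Stmn2* and *Mapt* differences were -0.36 and -0.43 (limma adjusted p = 0.528 and 0.294). Summed liver transcripts were 1.69–6.83 in controls and 122–421 in mutants, and choroid plexus markers 896–3652 and 5094–17078. Their part in the members' differences was not tested.

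Most neuron markers also had lower means in mutants and most proliferation markers higher ones, whereas progenitor markers differed in direction between conditions. Postmitotic neuron markers were lower in mutants for 12 of 12 at E11.5, 8 of 12 at E14.5, 10 of 12 at 12 hours and 12 of 12 at 24 hours, with median log2 differences of -0.30, -0.19, -0.22 and -0.25, although by the test only *Neurod6* fell, at E14.5 (1637 ± 214 against 2979 ± 134, limma adjusted p = 0.0481) and at 24 hours (1353 ± 163 against 2220 ± 289, limma adjusted p = 0.0425). Their summed level was 30132–30971 against 36263–37250 at E14.5 and 25625–30579 against 30576–34611 at 24 hours. Of 8 proliferation markers, 7, 6, 7 and 8 were higher in mutants in the 4 conditions. Summed proliferation markers were 11740–14317 in mutants against 9004–11034 in controls at E14.5. At 24 hours they were 5563–6505 against 4357–5261, and at E11.5 and 12 hours they overlapped. Apical progenitor markers were higher in mutants for 1 of 10 at E11.5, 7 of 10 at E14.5, 9 of 10 at 12 hours and 8 of 10 at 24 hours, and intermediate progenitor markers for 1 of 8, 3 of 8, 6 of 7 and 5 of 7. Summed apical progenitor markers were 13979–14845 in mutants against 10805–12416 in controls at 24 hours, and overlapped in the other conditions. None of these progenitor and proliferation markers was called. What part a lower share of neurons had was not tested. Of the 5 lists of related cytoskeletal genes no gene was called in any mutant and control comparison, with list medians of -0.23 to 0.06.

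Few members were called on moving cells from cortex to culture, in the unpaired fit a share near that of all genes. After 12 hours, 1 of 10 members was called in controls, where 2169 of 13566 genes (16%) were, and 1 of 10 in mutants, where 1219 of 13617 (8.95%) were, and the medians of the set were 0.10 and 0.18. Cortex and culture of an embryo are paired, and with the embryo as a block 1 member was called in controls (*Stmn4*, limma adjusted p = 0.00508) and 3 in mutants (*Stmn4*, *Stmn1* and *Mapt*, limma adjusted p = 0.00837, 0.00887 and 0.0443). That blocked fit called 12.4% of all genes in controls (1686 of 13566) and 14.6% in mutants (1982 of 13617).

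*Stmn4* rose in controls from 1235, 1153 and 1200 in cortex to 2691, 1984 and 2164 in culture, by 0.92 ± 0.15 or 1.89-fold (limma adjusted p = 0.00271). Mutants read 1528, 1423 and 1037 in cortex and 2198, 1911 and 1757 in culture, also without overlap, a difference of 0.57 ± 0.17 (limma adjusted p = 0.0601). The difference between those changes was not called (0 of 10 members; 0 of 13601 genes, 0%, with limma, where 724 had an unadjusted p under 0.05, 1 with edgeR and 5 with DESeq2). *Stmn1* went the other way. It fell in mutants from 16243, 14265 and 14656 to 11216, 10414 and 9388, by 0.54 ± 0.13 (limma adjusted p = 0.0288), and in controls read 13028–17590 in cortex and 11208–12518 in culture, -0.28 ± 0.17 (limma adjusted p = 0.26). The *Stmn1* call was lost without either cortex or culture of mutant 1 or 2 (limma adjusted p 0.062 to 0.15).

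Among the rest, *Mapt* was lower in culture in mutants (4494–5437 against 5516–7268, -0.39 ± 0.14, called only with the block). *Map1b* was higher in control culture (24473–28653 against 14264–26072, 0.62 ± 0.24, limma adjusted p = 0.0922), and without the cortex of control 5 the difference was 0.91 and passed (limma adjusted p = 0.00398). *Dclk1* was higher without overlap in both genotypes, by 0.41 ± 0.13 and 0.36 ± 0.12 (limma adjusted p = 0.0553 and 0.0928). *Gap43* was 0.45 ± 0.18 in controls, called without the culture of control 5 (0.58, limma adjusted p = 0.0382). *Dcx*, *Map2*, *Stmn2* and *Stmn3* differed by -0.32 to 0.25, and none of these passed.

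**Figure D5:**
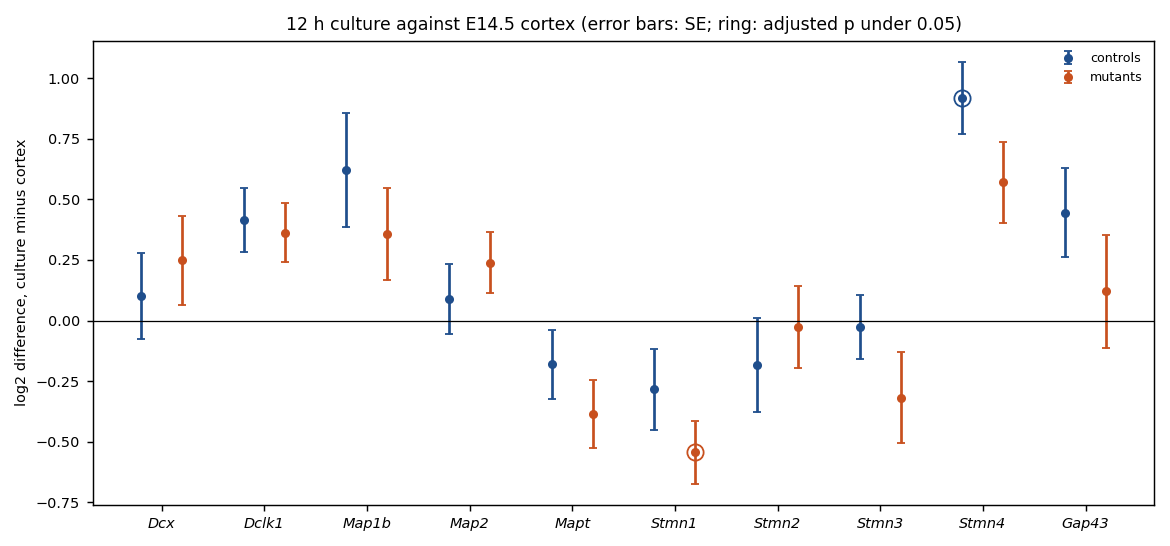
Log2 difference, 12-hour culture minus E14.5 cortex (vertical axis, log2 of normalized read count + 1), for the 10 genes in controls (blue) and mutants (orange), 3 libraries per group and condition, bars for the SE. Rings mark an adjusted p under 0.05 without the block: *Stmn4* in controls (0.92) and *Stmn1* in mutants (-0.54).

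Of the 5 related lists, 12 of 54 genes tested were called on culture in controls (22.2%) and 4 of 54 in mutants (7.41%). *Map4*, a broadly expressed microtubule-associated protein, rose in both genotypes (524 ± 24.8 to 924 ± 97.8 in controls, 488 ± 14.4 to 973 ± 101 in mutants), and *Cdk5r2*, another *Cdk5* activator, fell (283 ± 23 to 152 ± 14.4 and 316 ± 93.5 to 162 ± 31.9). *Nefm* and *Snap25* were the neuron markers that rose, 2 of 12 in each genotype. Markers of other cell types also changed: 7 of 10 apical progenitor markers fell in controls and 8 of 10 in mutants, with 1 rising in each, and their medians were -0.97 and -0.82. Their summed level moved less, from 11687–12501 to 9673–11339 in controls and from 12372–13664 to 10879–13037 in mutants. Further, 7 of 7 microglia markers fell in both genotypes, their sum going from 431–492 to 18.8–44.0 in controls and from 810–986 to 6.31–16.6 in mutants, 8 of 8 endothelial and pericyte markers fell in controls and 7 of 8 in mutants, and 7 of 8 erythroid markers rose in controls and 6 of 8 in mutants. What part this change in makeup had in the members' values was not tested.

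From 12 to 24 hours no member was called in controls, where 2 of 13294 genes (0.015%) were, nor in mutants, where 1 of 13374 (0.00748%) was, with 811 and 573 genes and 1 and 0 members at an unadjusted p under 0.05. DESeq2 called 41 and 23 genes, edgeR 2 and 1, and the block 37 and 28, with no member in any of them. In direction, 10 of 10 members were higher at 24 hours in controls and 7 of 10 in mutants, with medians of 0.17 and 0.08 against 0.02 over all genes in each genotype. Of all genes tested, 47.3% in controls and 47.7% in mutants were lower at 24 hours. In controls 4 of 10 (*Map2*, *Mapt*, *Stmn1* and *Stmn3*) were higher without overlap, against 6.88% of all genes. *Stmn4* was nearest, reading 2691, 1984 and 2164 at 12 hours and 2986, 3429 and 2487 at 24 hours in controls (0.38 ± 0.16, limma adjusted p = 0.795) and 0.28 ± 0.13 in mutants (limma adjusted p = 0.939). The test of a genotype difference in these changes called 0 of 13359 genes (0%) with limma, edgeR and DESeq2 alike, with 318 at an unadjusted p under 0.05.

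Over the 4 conditions the groups of each gene can be put in order. In controls, *Dcx*, *Dclk1*, *Map1b*, *Map2*, *Stmn4* and *Gap43* had their means in the order E11.5 cortex, E14.5 cortex, 12-hour culture and 24-hour culture, from 1191 ± 116 to 5020 ± 660 for *Dcx* and from 497 ± 68.8 to 2967 ± 472 for *Stmn4*. *Mapt*, *Stmn1*, *Stmn2* and *Stmn3* instead had a dip at 12 hours, as in *Stmn1* at 14785 ± 2455, 12055 ± 735 and 13834 ± 1203 in E14.5 cortex and the 2 cultures. Only the step from E11.5 to E14.5 (9 of 10) and that of *Stmn4* into culture exceeded the spread between libraries by the test, and the other neighbours in these orders were not shown to differ.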

How the data were processed

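RNA was sequenced from the 3′ end (QuantSeq, forward strand). Per the study's methods and the submitters' processing notes, the authors trimmed adapters and polyA, aligned reads to GRCm38 with TopHat2 2.0.10 (Bowtie 1.0.0, SAMtools 0.1.19), counted them per gene by strand with HTSeq 0.6.1 on a GENCODE annotation, checked quality with FastQC 0.11.7 and used DESeq2 for their tests. The deposited values are a signal: gene counts divided by a size factor of each library, 1 column for each of 24 libraries, with 0 other columns left out. Multiples of each column's smallest step gave back whole reads for 100% of 484666 values above 0 (tolerance 1e-06 reads).

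The members and gene lists were chosen with earlier results of these data known. Values were tested as log2(normalized read count + 1), leaving out genes whose mean over those libraries was under 10, with limma 3.58.1 (trend; R 4.3.3), only the libraries compared in each fit, and Benjamini-Hochberg adjustment over all genes. A fold change on this scale slightly understates that of low genes. Called means an adjusted p under 0.05. edgeR 4.0.16 and DESeq2 1.42.0 ran on the whole reads. The fit was first tested on data simulated from these libraries. Named in the text are all 10 members, up to 4 genes per list with the smallest p past the threshold, and the 5 genes most like the members over group means. Nothing in the sources says how litters were spread over the groups. Cortex, 12-hour and 24-hour libraries of an embryo are paired by design; deviations from group means of same-embryo libraries had a median correlation of 0.137 (-0.114 to 0.235, 18 pairs). Gene positions are from GENCODE (GRCm38). SEs are moderated ones from limma: each gene's spread between embryos, 3 per group, was drawn toward a trend over all genes. They can therefore be larger or smaller than the plain SE of 3 embryos. After a group mean, ± gives the SD.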

Additional observations from a re-analysis of the deposited data

How the results depend on the processing

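For the 93 gene and comparison values of the text, the settings other than leaving out a library kept the direction and the side of the threshold in 945 of 979 fits. The age calls ranged from 9 to 10 members in controls and stayed at 10 in mutants. DESeq2 called 2 members at 24 hours (*Stmn2*, *Mapt*) and 2 over both cortex ages (*Dcx*, *Stmn2*), where limma called 0. On entry into culture, controls had 3 calls at an adjusted p under 0.1, 2 with DESeq2 and 3 with all 24 libraries in one fit; mutants had 3, 3 and 2, and 0 without the filter on low values. With the replicate block, mutants had 3 calls in place of 1, and pairing changed no other count of members. Without cortices 5 and 6, chosen after seeing the data, 2 members were called at E14.5. The cause of these changes was not tested.

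Leaving out 1 library, members called ranged from 0 to 1 at 24 hours, from 1 to 2 in controls and 0 to 2 in mutants on entry into culture, and from 9 to 10 for age in controls; the count stayed at 0 in the other genotype comparisons, in both 24 against 12 hour comparisons and in the 3 interactions.

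Signs turned only in values that passed no test. In the mutant and control comparison at E11.5, *Map2* was 0.014 with a term for sex and 0.035 without A and D, and *Stmn1* -0.0062 with TMM. At E14.5, *Map1b* was 0.083 with quantile normalization, 0.37 with sex and 0.082 without cortices 5 and 6, *Stmn1* -0.0016 with TMM, *Stmn3* 0.20 without cortices 5 and 6, and *Stmn4* -0.21 and *Gap43* -0.50 with sex. At 12 hours, *Dcx* was 0.24 and *Stmn2* 0.12 with sex, and *Map1b* 0.072 with quantile normalization. Between mutant culture and cortex, *Stmn2* was 0.016 with edgeR and 0.0091 with DESeq2. Without single libraries the ranges that crossed 0 were, for mutant against control at E11.5, *Stmn1* -0.40 to 0.45. At E14.5 they were *Gap43* -0.12 to 0.34, *Map1b* -0.21 to 0.27, *Stmn1* -0.048 to 0.17 and *Stmn3* -0.16 to 0.19. Over both ages they were *Gap43* -0.16 to 0.042 and *Stmn1* -0.16 to 0.22, and at 12 hours *Stmn2* -0.37 to 0.045. For culture against cortex they were, in controls, *Dcx* -0.054 to 0.24, *Stmn2* -0.39 to 0.027 and *Stmn3* -0.074 to 0.015, and in mutants *Gap43* -0.16 to 0.30 and *Stmn2* -0.17 to 0.18. At 3 libraries per group and this depth, the SE of a member's genotype difference within a condition was 0.10 to 0.40 on the log2 scale.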
